A study of Mus musculus with 8 samples.

Results

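The collagen genes were taken as every gene of the count table whose GENCODE M21 symbol is Col, a number, the letter a and a number. This rule gave 44 genes of the 46517 in the table, of which 46005 have a symbol. By their known assembly they were grouped as 11 fibrillar members, 6 basement membrane members (type IV), 3 network members (types VIII and X) and 24 members of other classes. Whole livers of 4 WT littermates (FoxO1 loxP/loxP) and 4 MøFoxO1-KO mice (FoxO1 loxP/loxP with Lyz2-Cre) were compared by RNA-Seq of polyadenylated RNA. All 8 were male C57BL/6 mice on a NASH-inducing diet for 25 weeks from 6 weeks of age, so that they were 31 weeks old, and all had fasted for 16 hours. The Cre of the MøFoxO1-KO mice is driven by the lysozyme 2 promoter, which is active in myeloid cells, whereas the RNA came from all cells of the liver, so that fewer cells of a type and less RNA per cell cannot be told apart.

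Collagens are secreted or membrane-bound proteins in which 3 chains wind around each other into a triple helix. The winding requires a glycine in each triplet of residues. Fibrillar collagens (types I, II, III, V, XI, XXIV and XXVII) include those that assemble into the banded fibers that give tissue its tensile strength, and types I and III make up most of the scar in a fibrotic liver. Type IV collagen forms the sheet of basement membranes, type VI forms beaded microfibrils, and the FACIT collagens (types IX, XII, XIV, XVI, XIX, XX and XXII) sit on the surface of fibers. Types XV and XVIII, the multiplexins, are found at basement membranes. In liver, hepatic stellate cells and portal fibroblasts are the best known source of fibrillar collagen, and hepatocytes are known to make type XVIII.

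The fibrillar genes share a repeat in their exons that was visible in the reference annotation. Printed here is the first coding exon of 54 bases that consists of 6 whole turns of this repeat, in the 3 major scar collagens and in the 2 fibrillar members with an unadjusted P under 0.05 on the higher side in MøFoxO1-KO livers. Lower case marks the sequence on the coding strand, and capitals mark the glycine codons (GGN) that open each triplet of codons.
Col1a1, exon 8 of 51, chr11:94939904-94939957, plus strand: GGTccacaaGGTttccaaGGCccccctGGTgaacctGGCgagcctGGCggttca
Col1a2, exon 8 of 52, chr6:4515481-4515534, plus strand: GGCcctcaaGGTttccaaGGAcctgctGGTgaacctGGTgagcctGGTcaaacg
Col3a1, exon 6 of 51, chr1:45325360-45325413, plus strand: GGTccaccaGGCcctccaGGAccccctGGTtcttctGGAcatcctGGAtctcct
Col11a2, exon 15 of 66, chr17:34051480-34051533, plus strand: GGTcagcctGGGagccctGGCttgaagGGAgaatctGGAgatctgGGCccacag
Col27a1, exon 4 of 61, chr4:63231792-63231845, plus strand: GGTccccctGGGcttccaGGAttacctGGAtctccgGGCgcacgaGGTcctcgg
The sequences and coordinates are those of GRCm38 with GENCODE M21 transcripts, and exons are numbered along the coding sequence. The glycine codons are what the exons were chosen by, and the codons in between differ from gene to gene.

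In the longest coding transcript of each fibrillar gene, 51 to 67 coding exons were counted, and exons of exactly 54 bases made up 41.2 to 55% of them, with a median of 46.3%. The longest uninterrupted stretch with a GGN codon in the first place of each triplet of codons held 338 such codons in Col1a1, 339 in Col1a2, 344 in Col3a1 and 338 in Col11a2, but 217 in Col27a1 and 216 in Col24a1. Exons of 54 bases were between 2.13 and 5.66% of the coding exons of the 6 type IV genes, whose longest stretches held 39 to 66 glycine codons. The 3 network genes had 2 coding exons each and none of 54 bases. Among other classes the share ran from 0.0% in Col26a1 to 44.4% in Col22a1. Col11a2, at 47.0%, lay among the other fibrillar genes in this feature, whereas Col27a1 and Col24a1 had the highest shares, 54.1 and 55%, as well as the shortest stretches.

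**Figure D1:**
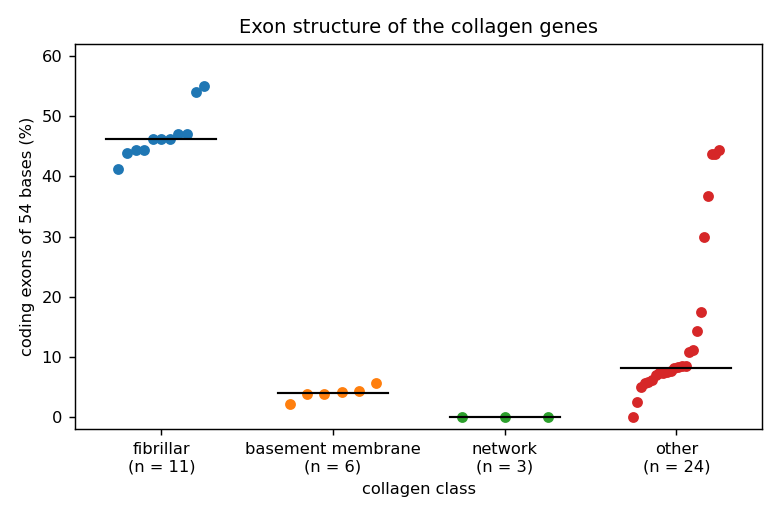
Share of coding exons that are exactly 54 bases long (percent, vertical axis) for each of the 44 collagen genes, by class; points are genes and lines are class medians. The 11 fibrillar genes lie at 41.2% or above, and the 6 basement membrane genes lie at 5.66% or below.

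Total counts lay between 15253218 and 18025481 per mouse, and the collagen genes together held between 0.1028 and 0.1486% of them. Mitochondrial genes held 4.163 to 6.332%. Counts were normalized for library size with TMM factors, and the unit is that of a library of mean size. For Foxo1, the targeted gene, WT livers averaged 404 ± 73.9 and MøFoxO1-KO livers 359 ± 73.4 normalized counts (SD, n = 4 each), with overlap (exact two-sided permutation test, P = 0.343). WT replicate 23 stood apart, with the lowest sum of normalized counts over 10 hepatic stellate cell markers (4961, against 7073 to 10834 in the other 7 mice) and over 8 sinusoidal endothelium markers (1934, against 3549 to 6133). Over the 26 tested collagen genes, WT replicate 23 was the lowest of the 8 mice in 8, MøFoxO1-KO replicate 26 in 7 and MøFoxO1-KO replicate 27 in 6, and WT replicate 22 was the highest in 7 and MøFoxO1-KO replicate 28 in 5, among them Col27a1 and Col20a1. Some collagen results are also given below without WT replicate 23, MøFoxO1-KO replicate 28 or both. The fits of the marker lists are given over all 8 mice. The labels do not say that the mice came from separate litters, and P values measure the spread between these livers.

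Of the 44 collagen genes, 26 passed the filter on low counts and were tested among 13278 genes. The 18 that were not tested had at most 84 counts over the 8 mice together and at most 20 in any mouse. Col11a1, Col19a1 and Col26a1 had no count in any mouse, which allows up to 3 counts in each library. Col2a1 (the collagen of cartilage), Col9a1, Col22a1 and Col28a1 had between 1 and 3 counts in all 8 mice together. The remaining 11, with 6 to 84 counts in total, were Col4a3, Col4a6, Col6a4, Col7a1, Col8a1, Col8a2, Col9a2, Col9a3, Col10a1, Col17a1 and Col25a1. These 18 genes enter no count of tested genes in the main fit below, but the sums per kilobase include them. A fit without the filter covered 41 collagen genes, with 8 lower and 2 higher at an unadjusted P under 0.05 (edgeR). Differences in the 18 genes would rest on few reads and are not given here.

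Per kilobase of exon, Col18a1, whose C-terminal fragment is endostatin, was by far the most abundant collagen transcript. Its level was 1957 ± 496 normalized counts per kilobase in WT livers and 1931 ± 206 in MøFoxO1-KO livers (SD, n = 4 each), which was 67.2 ± 7.12 and 67.9 ± 6.95% of the level of all 44 members. Col5a3, a chain of the fibril-regulating type V, came next with 219 ± 35.8 and 275 ± 63.7 normalized counts per kilobase, then Col14a1 with 141 ± 30.8 and 139 ± 60.2. In WT livers these were followed by Col4a1 at 102 ± 19.9, Col3a1 at 82.1 ± 28.99, Col6a1 at 57.5 ± 19.6, Col4a2 at 57.4 ± 9.36, Col1a1 at 56.7 ± 17.3 and Col27a1 at 50.1 ± 15.2 normalized counts per kilobase. From Col3a1 to Col27a1 each neighbor differed from the next by less than its SD. In MøFoxO1-KO livers Col1a1 had rank 10, at 23.3 ± 13.7, and Col27a1 had rank 4, at 113.5 ± 99.7. The scale depends on the exon length used: Col1a2 has 12426 bases of exon over all its transcripts but 5348 in its longest transcript, which places it lower per kilobase than a single transcript would.

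**Figure D2:**
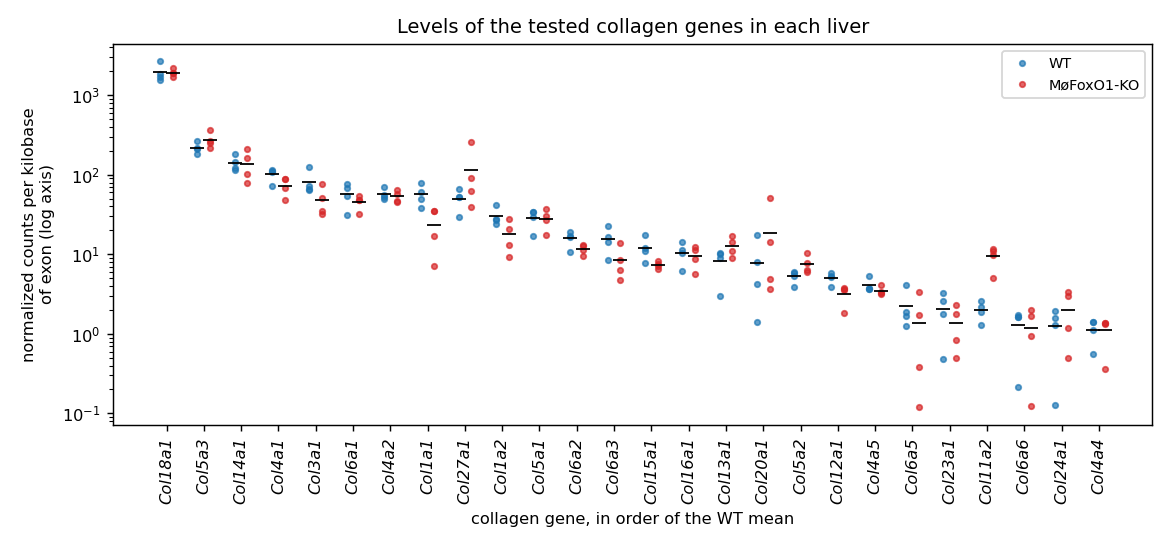
Normalized counts per kilobase of exon (log axis) of the 26 tested collagen genes in each of 4 WT and 4 MøFoxO1-KO livers, ordered by the WT mean; points are mice and dashes are group means. Col18a1 lies about an order of magnitude above the others in both groups, and Col11a2 is the gene whose groups are farthest apart.

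The summed level of all collagen genes differed little between the groups. It was 2883 ± 425 normalized counts per kilobase in WT livers and 2855 ± 289 in MøFoxO1-KO livers (SD, n = 4 each), and without Col18a1 it was 926 ± 138 and 924 ± 265. Of the 26 tested genes, the fit placed 7 above and 19 below WT in MøFoxO1-KO livers. Their median log2 fold change was -0.14, whereas that of all 13278 genes was -0.01. Without WT replicate 22 the median of the collagen genes was 0.00.

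Each gene was tested with edgeR's quasi-likelihood F test, and P values were adjusted over all tested genes by the Benjamini-Hochberg (BH) method. A call needed both a BH-adjusted P under 0.05 and a log2 fold change beyond 1.5 in either direction. Of 26 collagen genes, 1, Col11a2, met both limits (3.85%), against 0.188% of all tested genes. At an unadjusted P under 0.05, 6 collagen genes were lower in MøFoxO1-KO livers (23.1%, against 8.06% of all tested genes) and 2 were higher (7.69%, against 8.65%). All 4 MøFoxO1-KO livers lay below all 4 WT livers in 2 collagen genes (7.69%, against 4.71% of all tested genes) and above them in 1 (3.85%, against 5.0%). The count of 6 lower genes rested on single mice, being 1 when MøFoxO1-KO replicate 26 was left out, 2 when replicate 27 was, and 5 when WT replicate 23 and MøFoxO1-KO replicate 28 both were. It also depended on the correction for GC content and gene length, with which 3 were lower and 4 were higher.

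**Figure D3:**
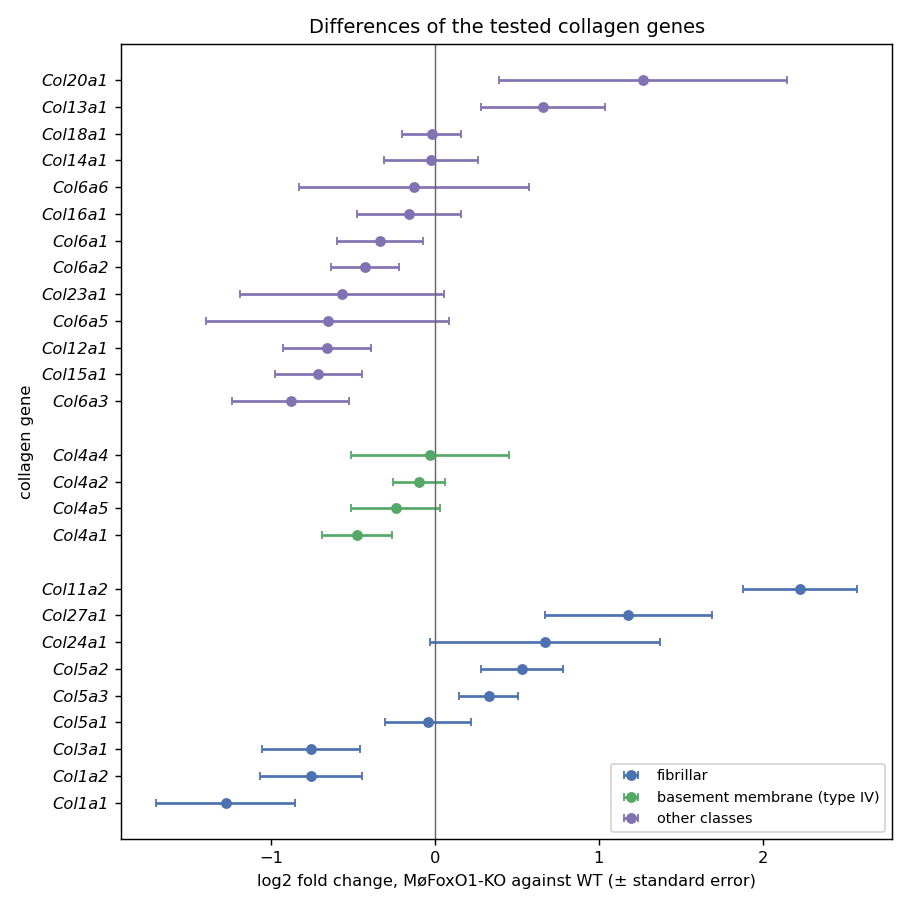
Log2 fold change of MøFoxO1-KO against WT livers (horizontal axis, with the standard error as bars) for the 26 tested collagen genes, grouped by class. The fibrillar genes spread from -1.28 for Col1a1 to 2.23 for Col11a2, and the 4 type IV genes lie between -0.48 and -0.03.

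Among the 9 tested fibrillar genes, 5 were fitted higher and 4 lower, and the median of their log2 fold changes was 0.33. The genes of types I and III were on the lower side, and Col11a2, Col27a1, Col24a1, Col5a2 and Col5a3 were on the higher side. The median was -0.04 in the 7 genes with at least 10 counts in every mouse and -0.08 without WT replicate 23 and MøFoxO1-KO replicate 28.

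Col1a1 (ENSMUSG00000001506, chromosome 11 of GRCm38 from 94936224 to 94953042) encodes the chain of which type I collagen contains a pair. WT replicates 22, 23, 24 and 25 had 513, 322, 404 and 249 normalized counts, and MøFoxO1-KO replicates 26, 27, 28 and 29 had 110, 46.6, 228 and 227. All MøFoxO1-KO livers were below all WT livers, with a narrow gap between WT replicate 25 and MøFoxO1-KO replicates 28 and 29. Col1a1 had a log2 fold change of -1.28 ± 0.42 (SE; edgeR, BH-adjusted P = 0.193), a 2.43-fold lower level that did not pass the adjustment. It stayed between -1.53 and -0.97 when each mouse was left out in turn, and the unadjusted P was under 0.05 in all 8 of these fits. The adjusted P of Col1a1 over the alternatives ran from 0.0521 to 0.362.

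Col1a2 (ENSMUSG00000029661, chromosome 6 from 4504814 to 4541544) encodes the partner chain of Col1a1 in the type I trimer. Its normalized counts were 515, 300, 349 and 333 in WT replicates 22 to 25 and 165, 115, 255 and 350 in MøFoxO1-KO replicates 26 to 29. MøFoxO1-KO replicate 29 was within the WT range and the other 3 were below it. Col1a2 had a log2 fold change of -0.76 ± 0.31 (SE; edgeR, BH-adjusted P = 0.264).

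Col3a1 (ENSMUSG00000026043, chromosome 1 from 45311538 to 45349706) encodes the only chain of type III collagen, an early component of scar. It had 1231, 702, 651 and 640 normalized counts in WT replicates 22 to 25 and 317, 344, 504 and 744 in MøFoxO1-KO replicates 26 to 29. As for Col1a2, MøFoxO1-KO replicate 29 was within the WT range and the other 3 were below it, and WT replicate 22 was far above the other mice. Col3a1 had a log2 fold change of -0.76 ± 0.30 (SE; edgeR, BH-adjusted P = 0.2497), and it was -0.48 without WT replicate 22.

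Type I and III transcripts were also read together as a share of the collagen level. Summed per kilobase, Col1a1, Col1a2 and Col3a1 had 245, 145, 156 and 130 normalized counts per kilobase in WT replicates 22 to 25 and 62.4, 51.4, 107 and 139 in MøFoxO1-KO replicates 26 to 29. The group means had a ratio of 0.531, and the groups overlapped through MøFoxO1-KO replicate 29. Of the level of all collagen genes other than Col18a1, these 3 genes held 18.1 ± 3.40% in WT livers and 9.62 ± 3.44% in MøFoxO1-KO livers (SD, n = 4 each), again with overlap. The other fibrillar genes together had 307 ± 53.2 and 436 ± 168 normalized counts per kilobase (SD, n = 4 each), and the MøFoxO1-KO livers had 382, 370, 683 and 308 in replicates 26 to 29.

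**Figure D4:**
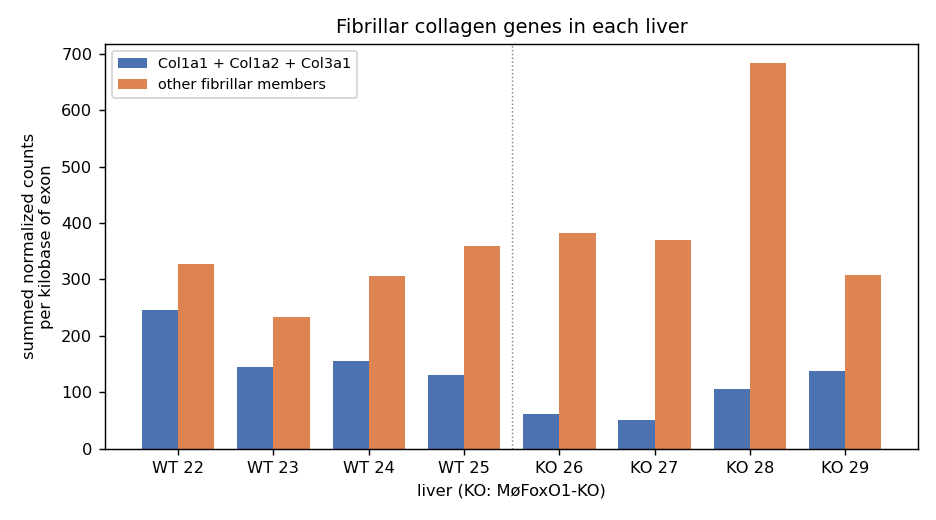
Summed normalized counts per kilobase of exon (vertical axis, from 0) in each of the 8 livers, for Col1a1, Col1a2 and Col3a1 together and for the other fibrillar members together. The sum over types I and III is 130 or more in WT livers and 139 or less in MøFoxO1-KO livers, and MøFoxO1-KO replicate 28 has the highest sum over the other fibrillar members.

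Col5a1 and Col5a2 encode the chains of the common form of type V collagen, which limits the width of type I fibers. Col5a1 had 293, 146, 291 and 249 normalized counts in WT replicates 22 to 25 and 230, 149, 312 and 256 in MøFoxO1-KO replicates 26 to 29. The groups of Col5a1 covered the same range (log2 fold change -0.04 ± 0.26, SE; edgeR, BH-adjusted P = 0.951), and its sign turned under 4 alternatives. Col5a2 had 56.2, 37.4, 58.2 and 50.8 normalized counts in WT livers and 60.4, 100, 57.9 and 75.0 in MøFoxO1-KO livers in the same order. Only MøFoxO1-KO replicate 28 was within the WT range of Col5a2, by a small margin, and the log2 fold change was 0.53 ± 0.25 (SE; edgeR, BH-adjusted P = 0.330). The ratio of Col5a2 to Col1a2 counts was 0.109 to 0.167 in WT livers and 0.214 to 0.875 in MøFoxO1-KO livers, without overlap. This ratio was chosen after its values were seen and was not tested. Col5a3, the chain of a rarer type V trimer, had 1239 to 1824 normalized counts in WT livers and 1491 to 2494 in MøFoxO1-KO livers, with a log2 fold change of 0.33 ± 0.18 (SE; edgeR, BH-adjusted P = 0.392) that was 0.17 without MøFoxO1-KO replicate 28 and 0.0875 without it and WT replicate 23.

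Col11a2 (ENSMUSG00000024330, chromosome 17 from 34039437 to 34066685, plus strand) encodes a chain of type XI collagen, best known from cartilage. Its raw counts were low, at 19, 9, 16 and 13 in WT replicates 22 to 25 and 36, 67, 80 and 60 in MøFoxO1-KO replicates 26 to 29. Normalized, these were 17.8, 8.85, 14.8 and 12.9 in WT livers and 34.5, 80.0, 75.9 and 67.2 in MøFoxO1-KO livers. All MøFoxO1-KO livers were above all WT livers, with replicate 26 the lowest of them. Col11a2 rose 4.69-fold (log2 fold change 2.23 ± 0.35, SE; edgeR, BH-adjusted P = 0.0343), and the exact two-sided permutation test gave P = 0.0286, the smallest that 4 against 4 mice allow. The log2 fold change of Col11a2 was between 2.07 and 2.44 when each mouse was left out. The call remained in 2 of these 8 fits, without MøFoxO1-KO replicate 26 or 28, and was lost in the other 6 at adjusted P values of up to 0.135 (edgeR, BH-adjusted). It was also lost without both WT replicate 23 and MøFoxO1-KO replicate 28 (edgeR, BH-adjusted P = 0.0646), with 1 surrogate variable (0.0618) and by limma-voom (0.0878), while the log2 fold change stayed at 1.91 or more. Per kilobase, Col11a2 stayed a minor transcript, at 1.99 ± 0.548 normalized counts per kilobase in WT livers and 9.43 ± 3.02 in MøFoxO1-KO livers (SD, n = 4 each).

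Upstream of Col11a2 on the same strand lies Rxrb, which encodes a retinoid X receptor and ends 1043 bases before the deposited exons of Col11a2 begin at 34039437. The RefSeq start site of Col11a2 used below lies upstream of that position, closer to Rxrb. The genes share no exon bases. Rxrb had 511, 520, 541 and 515 normalized counts in WT replicates 22 to 25 and 548, 657, 661 and 594 in MøFoxO1-KO replicates 26 to 29. All MøFoxO1-KO livers were above all WT livers in Rxrb as well, with a smaller difference (log2 fold change 0.24 ± 0.10, SE; edgeR, BH-adjusted P = 0.272). Whether reads that run on from Rxrb enter the counts of Col11a2 was not tested.

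The 150 bases before the RefSeq start sites of Col11a2 and Col3a1 are shown, as the fibrillar member called higher and a scar collagen with lower counts. Lower case marks the sequence on the strand of the gene in GRCm38.p6, and capitals mark matches to any of 4 short motifs, which were searched on both strands. The letters searched were CCAAT for the CCAAT box, then GGGCGG for the GC box, further TATAAA for the TATA box, and lastly GTAAACA for the forkhead core.
Col11a2, chr17:34038988-34039137, plus strand: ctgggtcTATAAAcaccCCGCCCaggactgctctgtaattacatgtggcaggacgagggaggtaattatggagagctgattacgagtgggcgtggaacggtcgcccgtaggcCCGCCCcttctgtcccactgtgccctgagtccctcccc
Col3a1, chr1:45311388-45311537, plus strand: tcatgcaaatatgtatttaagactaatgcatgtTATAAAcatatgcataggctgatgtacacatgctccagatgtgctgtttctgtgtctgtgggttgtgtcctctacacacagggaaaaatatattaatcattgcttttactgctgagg
In Col11a2 the letters of a TATA box begin 143 bases before the start site and those of GC boxes 133 and 38 bases before it, and in Col3a1 those of a TATA box begin 117 bases before it. RefSeq windows were found for 35 of the 44 collagen genes, 38 windows in all. A GC box was present in 50% of these 38 windows and in 28.6% of the 32851 windows of all genes, a CCAAT box in 21.1 and 24.5%, a TATA box in 10.5 and 7.57%, and a forkhead core in 0.0 and 1.8%. Matches in the printed windows do not overlap each other, and they describe the letters of these windows only.

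Col27a1 (ENSMUSG00000045672, chromosome 4 from 63214004 to 63334991) encodes a fibrillar chain with a shorter triple helix. It had 855, 382, 682 and 692 normalized counts in WT replicates 22 to 25 and 1195, 820, 3380 and 517 in MøFoxO1-KO replicates 26 to 29. MøFoxO1-KO replicates 27 and 29 were within the WT range, and replicate 28 was far above every other mouse. Col27a1 had a log2 fold change of 1.18 ± 0.51 (SE; edgeR, BH-adjusted P = 0.282), and it was 0.38 without MøFoxO1-KO replicate 28. Col24a1, the member closest to Col27a1 in structure, had 0.983 to 15.0 normalized counts in WT livers and 3.83 to 25.6 in MøFoxO1-KO livers, with overlap.

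**Figure D5:**
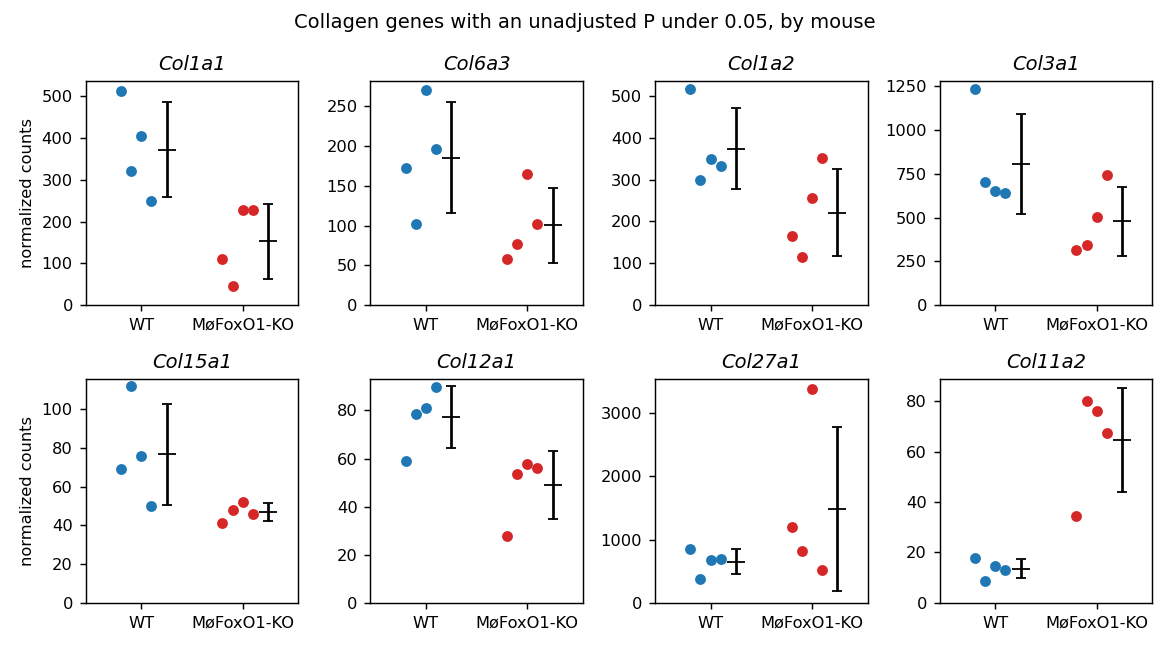
Normalized counts (vertical axis, from 0) of the 8 collagen genes with an unadjusted P under 0.05, 1 panel per gene; points are the 4 WT and 4 MøFoxO1-KO livers, and bars are the mean ± SD. The groups are separate in Col1a1, Col12a1 and Col11a2, and 1 mouse at 3380 sets the mean of Col27a1.

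All 4 tested type IV genes were fitted lower (with the GC content and gene length offset Col4a2 turned to 0.011 and Col4a4 to 0.0749, and 1 or both of them turned without WT replicate 22, WT replicate 24 or MøFoxO1-KO replicate 26), with log2 fold changes between -0.48 and -0.03 and a median of -0.17, and none was past an unadjusted P of 0.05 by edgeR, while Col4a1 was by DESeq2 and by limma-voom. Their summed level per kilobase was 166 ± 24.9 normalized counts in WT livers and 133 ± 28.3 in MøFoxO1-KO livers (SD, n = 4 each). Col4a1 and Col4a2 encode the chains of the type IV collagen found in nearly all basement membranes. They lie head to head on chromosome 8, from 11198423 to 11312826 on the minus strand and from 11312805 to 11449287 on the plus strand, and their exons share 22 bases. Col4a1 had 762, 787, 737 and 493 normalized counts in WT replicates 22 to 25 and 461, 326, 608 and 601 in MøFoxO1-KO replicates 26 to 29. WT replicate 25 was the exception to a separation of the groups in Col4a1, and the log2 fold change was -0.48 ± 0.21 (SE; edgeR, BH-adjusted P = 0.301). Col4a2 had 470, 349, 367 and 333 normalized counts in WT livers and 301, 308, 428 and 385 in MøFoxO1-KO livers, with broad overlap (log2 fold change -0.09 ± 0.16, SE; edgeR, BH-adjusted P = 0.805). Col4a1 counts were 1.48 to 2.25 times those of Col4a2 in WT livers and 1.06 to 1.56 times in MøFoxO1-KO livers. Col4a4 and Col4a5, chains of kidney and other specialized basement membranes, had means under 30 normalized counts in both groups and overlapped.

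The 3 main chains of type VI collagen, which links cells to the fibrillar matrix, were all fitted lower. Col6a3 (chromosome 1 from 90765923 to 90843971) had 172, 101, 270 and 196 normalized counts in WT replicates 22 to 25 and 57.5, 76.4, 165 and 102 in MøFoxO1-KO replicates 26 to 29. The MøFoxO1-KO replicates 28 and 29 were within the WT range of Col6a3, and its log2 fold change was -0.88 ± 0.36 (SE; edgeR, BH-adjusted P = 0.259). Without WT replicate 23 and MøFoxO1-KO replicate 28 it was -1.43. With each mouse left out in turn it ran from -1.23 to -0.64, weakest without WT replicate 24. The unadjusted P (edgeR) was under 0.05 in 3 of these 8 fits.

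Col6a1 had 238, 138, 295 and 336 normalized counts in WT replicates 22 to 25 and 210, 140, 211 and 236 in MøFoxO1-KO replicates 26 to 29. WT replicate 23 was the lowest of all mice in Col6a1, and the log2 fold change was -0.34 ± 0.26 (SE; edgeR, BH-adjusted P = 0.564). Col6a2 had 138, 89.5, 157 and 143 normalized counts in WT livers and 93.9, 80.0, 110.1 and 107.5 in MøFoxO1-KO livers. Without WT replicate 23, all WT livers would be above all MøFoxO1-KO livers in Col6a2, which over all mice had a log2 fold change of -0.43 ± 0.21 (SE; edgeR, BH-adjusted P = 0.336). The summed level of the type VI genes was 92.8 ± 27.4 normalized counts per kilobase in WT livers and 68.3 ± 13.3 in MøFoxO1-KO livers (SD, n = 4 each). Col6a5 and Col6a6, related chains, had at most 39.3 normalized counts in any mouse and their groups overlapped.

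The 4 tested FACIT members had log2 fold changes from -0.66 to 1.27. Col12a1 (chromosome 9 from 79598991 to 79718831), known from dense connective tissue, had 59.0, 78.7, 81.2 and 89.6 normalized counts in WT replicates 22 to 25 and 27.8, 53.7, 57.9 and 56.0 in MøFoxO1-KO replicates 26 to 29. All MøFoxO1-KO livers were below all WT livers, by a small margin between WT replicate 22 and MøFoxO1-KO replicate 28. Col12a1 had a log2 fold change of -0.66 ± 0.27 (SE; edgeR, BH-adjusted P = 0.260). Col14a1, which is close to Col12a1 in structure, had 1281, 799, 854 and 1017 normalized counts in WT livers and 717, 547, 1146 and 1481 in MøFoxO1-KO livers. The MøFoxO1-KO livers of Col14a1 lay on both sides of the WT range, and the log2 fold change of -0.02 ± 0.29 (SE; edgeR, BH-adjusted P = 0.979) turned its sign under 5 alternatives, upper-quartile scaling among them. Col16a1 overlapped between groups (log2 fold change -0.16), and Col20a1, with 5.97 to 73.1 normalized counts in WT livers, reached 217 in MøFoxO1-KO replicate 28 and 15.3 to 60.5 in the others.

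Both multiplexins were tested. Col15a1 (chromosome 4 from 47208161 to 47313167) had 69.3, 112, 75.7 and 49.8 normalized counts in WT replicates 22 to 25 and 41.2, 47.8, 52.2 and 45.9 in MøFoxO1-KO replicates 26 to 29. The MøFoxO1-KO livers were close together, at 46.8 ± 4.55 (SD, n = 4), and MøFoxO1-KO replicate 28 was just above the lowest WT liver. Col15a1 had a log2 fold change of -0.71 ± 0.27 (SE; edgeR, BH-adjusted P = 0.229) and -0.47 without WT replicate 23. Col18a1 (chromosome 10 from 77052178 to 77166548) had 13072, 18812, 11038 and 12025 normalized counts in WT livers and 15423, 13423, 13487 and 11889 in MøFoxO1-KO livers. The WT range enclosed all MøFoxO1-KO livers, with a log2 fold change of -0.02 ± 0.18 (SE; edgeR, BH-adjusted P = 0.970) whose sign turned under 7 alternatives, upper-quartile scaling among them. The transmembrane collagens Col13a1 and Col23a1 had log2 fold changes of 0.66 and -0.57, and both overlapped between the groups.

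Genes that act on collagen were counted in lists written from general knowledge. For each list count below at an unadjusted P under 0.05 by edgeR, the shares of all tested genes were 8.65% higher and 8.06% lower. Of 22 tested enzymes and chaperones of procollagen folding and processing, none had an adjusted P under 0.05 by edgeR (BH-adjusted), and at an unadjusted P under 0.05, 2 were higher (Ppib, a prolyl isomerase, and Colgalt2) and 2 were lower (Crtap, a partner of prolyl 3-hydroxylase, and Colgalt1). By DESeq2, Ppib, Colgalt1 and Colgalt2 had a BH-adjusted P under 0.05, and by limma-voom none did. Colgalt2 rested on few reads, with raw counts of 11, 6, 1 and 17 in WT livers and 31, 38, 16 and 42 in MøFoxO1-KO livers. It passed the filter on low counts through the MøFoxO1-KO livers, which limits its P values. Colgalt1, which attaches galactose to collagen, had 712 to 1127 normalized counts in WT livers and 312 to 613 in MøFoxO1-KO livers. P3h2, a prolyl 3-hydroxylase with too few counts to be tested, did not overlap between groups, with 5.9 to 12.2 normalized counts in WT livers and 2.24 to 4.79 in MøFoxO1-KO livers, and it was named after its values were seen. Serpinh1, the collagen chaperone HSP47, had 223 ± 74.0 and 213 ± 70.3 normalized counts (SD, n = 4 each). In this fit all 5 tested crosslinking enzymes were lower (median log2 fold change -0.46), and 1 of them, Tgm2, had an unadjusted P under 0.05 by edgeR. No crosslinking enzyme had an adjusted P under 0.05 by edgeR, DESeq2 or limma-voom (BH-adjusted). Lox, the lysyl oxidase, was not tested, with 6.18 ± 2.38 and 6.42 ± 3.97 normalized counts.

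Of 7 tested collagen receptors, 1 had an unadjusted P under 0.05, the tyrosine kinase receptor Ddr1, with 46.2 to 84.6 normalized counts in WT livers and 28.8 to 43.0 in MøFoxO1-KO livers. None of 6 tested small proteoglycans and none of 6 tested collagen-degrading proteases and their inhibitors had an unadjusted P under 0.05 by edgeR, DESeq2 or limma-voom. Of the 11 proteases and inhibitors in the list, 5 had too few counts to be tested, and the groups did not overlap in 2 of these. Mmp13, a collagenase, had 4.98 to 33.2 normalized counts in WT livers, and in MøFoxO1-KO livers 2.85 in replicate 28 and none in the others. Timp1, an inhibitor of matrix metalloproteinases, had 8.85 to 42.5 in WT livers and 1.19 to 6.72 in MøFoxO1-KO livers. Both were named after their values were seen. Shares of genes whose groups do not overlap were taken over tested genes only, so Mmp13, Timp1 and P3h2 have no such share beside them. Of 12 tested fibrogenic signals, Tgfb2 was lower at an unadjusted P under 0.05 by all 3 tools, with 15.9 to 24.9 normalized counts in WT livers and 4.79 to 14.3 in MøFoxO1-KO livers. Its raw counts were 17, 20, 27 and 17 in WT livers and 5, 12, 8 and 7 in MøFoxO1-KO livers. Tgfb2 thus passed the filter on low counts through the WT livers, which limits its P values by all 3 tools. Tgfb1 was higher at an unadjusted P under 0.05 by limma-voom but not by edgeR or DESeq2, with 96.4 to 316 and 297 to 392 normalized counts. Among 18 basement membrane partners of type IV collagen, Lama3 was higher, and Lamc1 and Nid1, which bridges laminin and type IV collagen, were lower at an unadjusted P under 0.05. Nid1 had 282 to 403 normalized counts in WT livers and 147 to 234 in MøFoxO1-KO livers. None of the genes in these 5 lists had an adjusted P under 0.05 by edgeR or limma-voom (BH-adjusted), and by DESeq2 Ddr1, Lama3 and Nid1 did.

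Markers of the cells that could contribute these transcripts were given the same way, and their part in the collagen values was not tested. None of 10 hepatic stellate cell markers had an unadjusted P under 0.05 by edgeR, DESeq2 or limma-voom, their median log2 fold change was 0.11, and Lrat, the retinyl ester synthase of stellate cells, lay at 273 ± 32.8 against 261 ± 81.9 normalized counts (SD, n = 4 each). The sum over the stellate markers was 4961 to 9734 normalized counts in WT livers and 7325 to 10834 in MøFoxO1-KO livers. By group mean Ecm1 held most of it, with 4065 ± 1356 and 5455 ± 884 (SD, n = 4 each). The low end was WT replicate 23, and the other WT livers had 7073 to 9734. That mouse was the lowest of all in Reln, Des, Colec11, Cygb, Ecm1 and Hand2, but not in Lrat, Hgf, Pdgfrb and Rgs5, so the median depends on it. Of 10 markers of myofibroblasts and portal fibroblasts, 9 were tested, with a median log2 fold change of -0.38, and all 10 summed to 1462 to 2262 normalized counts in WT livers against 1154 to 1552. Gas6 held most of this sum, with 1409 ± 220 and 872 ± 139 without overlap, and was the only tested one with an unadjusted P under 0.05 by edgeR, DESeq2 or limma-voom. Its BH-adjusted P was 0.102 by edgeR and was under 0.05 by DESeq2. Acta2, the actin of myofibroblasts, had 20.5 ± 12.7 and 29.8 ± 15.3 normalized counts, with overlap.

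In this fit all 8 sinusoidal endothelium markers were higher, none at an unadjusted P under 0.05 by any of these tools, and summed to 1934 to 5280 normalized counts in WT livers and 3549 to 6133 in MøFoxO1-KO livers. The low end was WT replicate 23, and the other WT livers had 4175 to 5280, within the MøFoxO1-KO range. WT replicate 23 was the lowest of all mice in each of these markers except Stab2, so the shared direction depends on that mouse. The 6 cholangiocyte markers, also with none at an unadjusted P under 0.05 by these tools, had a median log2 fold change of -0.27, and Krt19 had 30.6 ± 25.5 and 22.8 ± 8.88 normalized counts. Of 10 macrophage markers, Gpnmb was lower at an adjusted P of 0.0382 (edgeR, BH-adjusted). At an unadjusted P under 0.05, 4 of the 10 were higher (Adgre1, Timd4, Vsig4 and Cd5l) and 2 lower (Gpnmb and Trem2), against 8.65 and 8.06% of all tested genes. Gpnmb had raw counts of 47, 73, 153 and 23 in WT livers and 3, 3, 8 and 1 in MøFoxO1-KO livers. Trem2 had 57, 21, 96 and 12 against 0, 2, 7 and 2. Both passed the filter on low counts only through the WT livers, which limits their P values. At a BH-adjusted P under 0.05, DESeq2 had Gpnmb, Timd4 and Trem2, and limma-voom had none. Adgre1 (F4/80) had 93.0 ± 33.6 normalized counts in WT livers and 191 ± 106 in MøFoxO1-KO livers, with overlap (exact two-sided permutation test, P = 0.257). WT livers had 70.7 to 143, and MøFoxO1-KO replicates 26 to 29 had 140, 252, 69.3 and 303. Of 8 hepatocyte markers, Serpina1c was higher at an adjusted P of 0.0370 (edgeR, BH-adjusted), as it was by DESeq2 (with Apoa1) and limma-voom, and the sum over the 8 was 1155899 to 1551101 against 1446607 to 2044240 normalized counts.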

How the data were processed

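For 8 livers the authors deposited raw read counts of Ensembl genes, in 1 table. Per the labels, reads were aligned with STAR and counted with featureCounts on mm10, without versions. Strandedness and the handling of multi-gene reads are not given in the sources used here. Symbols were taken from GENCODE M21. Genes were filtered with filterByExpr (minimum count 10, minimum total 15), scaled by TMM, and compared between genotypes in edgeR 4.0.16 (R 4.3.3) by quasi-likelihood. P values were adjusted over 13278 genes by the Benjamini-Hochberg (BH) method, and a call needed an adjusted P under 0.05 with a log2 fold change beyond 1.5 in either direction. Standard errors are the absolute log2 fold change divided by the square root of F. Permutation tests were exact and two-sided (scipy 1.17.1). Totals of 15253218 to 18025481 counts limit the precision for genes with few counts. Levels per kilobase used the deposited exon lengths. Exon structure came from the longest coding transcript of each gene, and start sites from RefSeq.

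Values in every mouse were given for tested members with an unadjusted P under 0.05 or groups that do not overlap, and for the common liver collagens named by rule. Other members were given by ranges. Members, classes and lists were chosen with earlier results of these data known. Ratios and the list of collagen-like proteins were added after their values were seen. Alternatives were DESeq2 1.42.0, its size factors, upper-quartile scaling, 2 filters, limma-voom (limma 3.58.1), edgeR's robust option, 1 surrogate variable (sva 3.50.0), a GC content and gene length offset, and leaving out each mouse. Leaving out both mice that stood apart was chosen after seeing the data. The scripts were checked on simulated data.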

Additional observations from a re-analysis of the deposited data

Results flagged for a closer look

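In 7 of 52 groups of 4 mice, 1 mouse lay farther from the other 3 than the 95% critical value of Dixon's test allows. Chance gives about 1 group in 20. Col3a1 in WT replicate 22 had 1231 normalized counts, against 640 to 702 in the other 3 WT livers. Col4a1 in WT replicate 25 had 493, against 737 to 787. Col4a5 in WT replicate 25 had 35.8, against 24.6 to 25.3, and Col4a5 in MøFoxO1-KO replicate 26 had 27.8, against 21.5 to 22.4. Col12a1 in MøFoxO1-KO replicate 26 had 27.8, against 53.7 to 57.9. Col4a4 in MøFoxO1-KO replicate 26 had 3.83, against 14.2 to 14.6, and Col6a6 in WT replicate 25 had 1.99, against 14.8 to 15.7. WT replicate 25 and MøFoxO1-KO replicate 26 account for 6 of the 7, and the other is Col3a1 in WT replicate 22. The last 2 genes are counted on few reads.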

How the results depend on the processing

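No paired analysis was possible because the groups share no replicate number (22 to 25 against 26 to 29). Of 16 collagen genes followed, 12, among them Col1a1, Col1a2, Col3a1, Col6a3, Col12a1, Col15a1, Col27a1 and Col11a2, kept their direction in every alternative that tested them. The sign turned for Col5a1 with the GC content and gene length offset (0.0898), for Col4a2 with that offset (0.011), for Col14a1 with that offset (0.0894) and upper-quartile scaling (0.0035), and for Col18a1 with the surrogate variable (0.22), that offset (0.0548), limma-voom (0.0045), upper-quartile scaling (0.0108) and without both WT replicate 23 and MøFoxO1-KO replicate 28 (0.18). With 1 mouse left out, log2 fold changes ran from -0.23 to 0.13 for Col5a1, -0.18 to 0.023 for Col4a2, -0.30 to 0.18 for Col14a1 and -0.11 to 0.17 for Col18a1. The cause was not tested.

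The number of collagen genes called was 0 with the surrogate variable, with limma-voom and without both of those mice, and 0 to 1 with 1 mouse left out. It was also 0 when at least 10 counts were required in every mouse, which left Col11a2 untested. At an unadjusted P under 0.05, 1 collagen gene was higher with DESeq2, limma-voom, the robust option, the surrogate variable, at least 10 counts in every mouse and without both mice, and 4 were higher and 3 lower with the GC content and gene length offset. With 1 mouse left out, 1 to 3 were higher and 1 to 6 lower. All MøFoxO1-KO livers lay above WT in 2 genes with DESeq2 size factors and without both mice, in 0 with at least 10 counts in every mouse, and lay below in 6 without both mice, where 3 are set against 3. Groups of 3 separate by chance more often than groups of 4. The shares of all tested genes under these alternatives are not given here, so the counts show only how the main counts move. The fibrillar median log2 fold change was -0.042 with at least 10 counts in every mouse and -0.082 without both mice, and the median of other classes ran from -0.39 to -0.11 with 1 mouse left out.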

Other observations

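Proteins with a collagen-like stem but no collagen name were counted as well, from a list of 20 genes added after the data were seen. Of 14 tested, the fit placed 11 above and 3 below WT in MøFoxO1-KO livers. Their median log2 fold change was 0.73, beside -0.14 for the collagen genes and -0.01 for all genes. At an unadjusted P under 0.05, 5 were higher (C1qa, C1qb, Marco, Fcna and Mbl1) and 1 was lower (Colec12). Of all tested genes, 8.65% were higher and 8.06% lower at that limit, but this list was added after the data were seen. None of the 14 had a BH-adjusted P under 0.05 by edgeR or limma-voom, while Marco and Mbl1 did by DESeq2. C1qa, a chain of complement C1q, had 811, 500, 1019 and 787 normalized counts in WT replicates 22 to 25 and 957, 1987, 817 and 3290 in MøFoxO1-KO replicates 26 to 29. Marco, a scavenger receptor of macrophages, had 18.7, 4.92, 81.2 and 49.8 in WT livers and 737, 2712, 66.4 and 2119 in MøFoxO1-KO livers. MøFoxO1-KO replicate 28 was within the WT range of both genes, and replicates 27 and 29 were the highest of all mice. The macrophage marker sum was 3034 to 5177 normalized counts in WT livers, and 4363, 7127, 3158 and 12363 in MøFoxO1-KO replicates 26 to 29. The part of that sum in these values was not tested. Summed over the 20 genes, WT livers had 10316 to 14991 normalized counts and MøFoxO1-KO livers 15473 to 26040, without overlap. By group mean, Mbl1 and Mbl2 held most of this sum. They had 2779 and 5897 of 13358 in WT livers and 4426 and 6696 of 19723 in MøFoxO1-KO livers. MøFoxO1-KO replicate 28 had 9229 of its 17765 in Mbl2. The sum was not tested.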
